A study of Mus musculus with 6 samples.

Results

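The 9 genes described here encode subunits and regulators of the NADPH oxidases: Cyba, Cybb, Nox1, Nox4, Ncf1, Ncf4, Noxa1, Noxo1 and Poldip2. They are 9 of the 32101 genes in the count table, and 5 of them (Cyba, Nox4, Ncf1, Noxo1 and Poldip2) had enough counts to be among the 12746 genes tested. The set was chosen by the counts of Cyba, which was silent in the knockout clones of these same libraries, so the contrast between knockout and het clones had already been used and the members' differences are given as a description with no test. Poly(A) RNA was sequenced from mouse embryonic fibroblasts immortalized with SV40 large T antigen, from embryos carrying floxed alleles of Macf1, the gene of a spectraplakin that crosslinks actin filaments and microtubules. The cells had received Cre recombinase under a CMV promoter from an AAV8 vector, and single-cell colonies were expanded, so each library is 1 clone. The 3 het clones are labelled Macf1flox/+ and the 3 knockout clones Macf1flox/flox, and both groups carry large T antigen and were exposed to Cre. The recombined state is given for the series as a whole and not on the labels of the samples. The sources used here do not say which embryos or parental cultures gave the clones, so all p-values measure only the spread between clones.

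NADPH oxidases move electrons from cytosolic NADPH across a membrane onto oxygen and so make superoxide, or hydrogen peroxide in the case of NOX4. The catalytic NOX proteins are held in the membrane by the small partner p22phox, the product of Cyba, without which NOX2, NOX1 and NOX4 are not mature or active. The phagocyte enzyme is built on Cybb (NOX2) and needs cytosolic subunits, among them Ncf1 and Ncf4, with a Rac GTPase, while NOX1 uses the organizer Noxo1 and the activator Noxa1. NOX4, the form best known in fibroblasts, is active without these cytosolic subunits, and Poldip2 is a p22phox-binding protein known to raise its activity.

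Library totals ran from 15661342 to 17614982 estimated counts in the het clones and from 16581833 to 18209673 in the knockout clones. The targeted gene Macf1 had 655 ± 66.6 CPM (counts relative to the TMM-scaled library size, SD, n = 3) in the het and 331 ± 27.9 in the knockout clones, a log2 fold change of -0.99 (SE 0.13, edgeR adjusted p = 0.00307), and the clones did not overlap. The sources used here do not say which exons are floxed, so this sum over the whole gene does not show the deletion itself, and het and knockout are used as the labels give them. Across the genome 3586 of 12746 genes were called at an adjusted p of 0.05 or less, 1772 of them higher in the knockout clones and 1814 lower. These are 28.1% of the genes tested, 13.9% called higher and 14.2% called lower, and 47.5% had no overlap between the clones of the groups. Leaving out single clones moved that count, to 2227 when het replicate 2 was left out, and to 1893 or 1565 when knockout replicate 1 or 2 was. Of the 12 fibroblast markers 10 were tested, 7 were lower and 0 higher in the knockout clones, and Thy1 had 1 count in all. Their summed level was 10500 to 14090 CPM in the het and 6916 to 9278 CPM in the knockout clones. Col1a1, the type I collagen chain, fell from 1227 ± 245.0 to 7.40 ± 5.74 CPM (edgeR adjusted p = 0.00128), and vimentin (Vim) was at 2422 ± 349.8 and 2863 ± 1104 CPM (adjusted p = 0.612). The part of these marker differences in the members' values was not tested.

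The upstream windows of Cyba and of the phagocyte catalytic gene Cybb are shown because these genes encode both chains of the membrane flavocytochrome. Cyba had no count in the knockout clones only, whereas Cybb had few counts in the het and the knockout clones alike. Each is the 250 bases before the RefSeq start on GRCm38.p6, 5′ to 3′ on the gene's strand, at chr8:122432941-122433190 (minus strand) for Cyba and chrX:9469325-9469574 (minus strand) for Cybb. Capitals mark the GC box letters GGGCGG, searched on both strands.

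Cyba: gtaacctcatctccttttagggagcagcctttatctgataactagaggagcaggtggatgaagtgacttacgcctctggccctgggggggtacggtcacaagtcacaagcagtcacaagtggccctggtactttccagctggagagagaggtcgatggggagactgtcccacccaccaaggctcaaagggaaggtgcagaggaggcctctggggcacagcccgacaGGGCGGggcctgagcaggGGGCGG
Cybb: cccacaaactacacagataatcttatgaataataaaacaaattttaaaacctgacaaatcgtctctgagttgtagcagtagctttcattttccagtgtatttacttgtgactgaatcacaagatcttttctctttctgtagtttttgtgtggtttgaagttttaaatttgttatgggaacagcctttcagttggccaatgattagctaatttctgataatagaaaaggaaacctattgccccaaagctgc

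The Cyba window held 2 GC boxes and 6 CpG dinucleotides at 60.0% GC, and the Cybb window held 0 GC boxes and 1 CpG at 34.0% GC. At least 1 GC box was in 32.7% of the 32851 windows of that length in the RefSeq table, whose median was 6 CpG and 52.4% GC. Of the 9 members 8 had a window. The Noxo1 and Poldip2 windows were CpG-rich, with 37 and 30 CpG, more than in 97.8% and 94.1% of all windows, and parts of both lay in annotated exons. The Nox4 window had 20 CpG and the Cyba window lay near the middle, with more CpG than 49.6% of windows. These letter matches describe the windows and say nothing about which factors bind there.

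Cyba (ENSMUSG00000006519, chromosome 8, 122424776 to 122432930, minus strand, GRCm38), which encodes p22phox, was expressed in every het clone and had no count in any knockout clone. The het clones had 436, 697 and 752 counts, or 26.1, 39.1 and 47.1 CPM, and the 3 knockout clones had 0 counts each. The groups did not overlap, and het replicate 1 was the lowest of the het clones, which spanned a 1.81-fold range. The het mean was 37.4 ± 10.6 CPM (SD, n = 3). A floor of 3 counts over the whole knockout group is 0.0577 CPM, and set against that floor, which covers counting error only, the het mean was at least 649-fold higher. In bulk RNA, fewer cells expressing a gene and less RNA per cell cannot be told apart. The fitted log2 fold change of -12.32 depends on the prior count and is no bound, and the authors' deposited table gives -12.31 for the single Cyba transcript. That transcript, Cyba-201, is the only one of the gene in the count table, so its reads were not divided between isoforms of Cyba. Among the 12746 tested genes, 54 had no count in any knockout clone and 10 had none in any het clone. By het level Cyba ranked 9 among those 54.

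**Figure D1:**
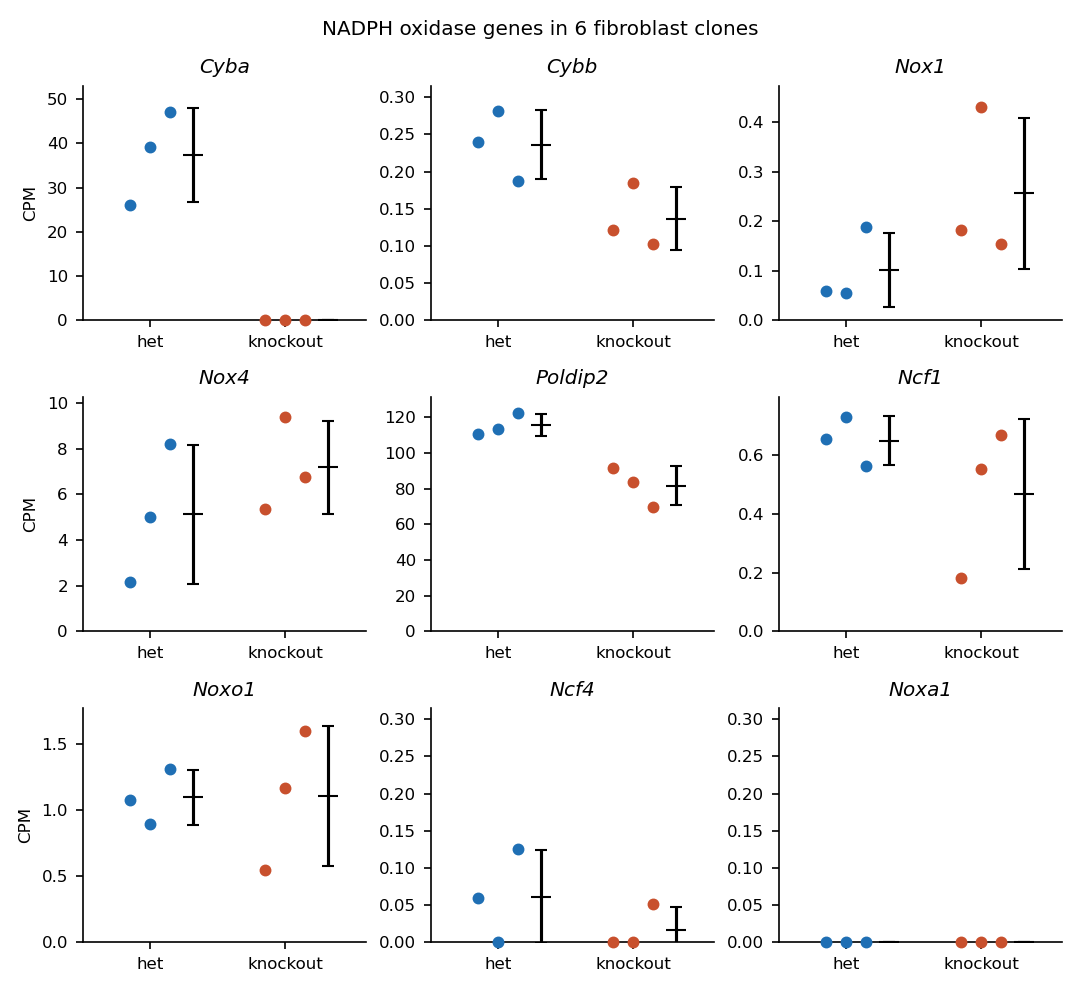
CPM of the 9 members in the 3 het (blue) and 3 knockout (orange) clones, with a separate linear axis for each gene; points are clones in replicate order and black bars give the mean and SD. Cyba lies at 26.1 to 47.1 CPM in the het clones and at 0 in the knockout clones, the Poldip2 clones do not overlap between groups, and the other members overlap or have few counts.

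Of the 5 members that passed the filter on low counts, the fit across all genes called 2 lower, Cyba and Poldip2, and 0 higher. The call of Cyba was fixed by the way the set was chosen. The background for a call in either direction was 28.1%, and since the members were chosen by this contrast nothing is read from that count. It fell to 1 without het replicate 2, without het replicate 3 or without knockout replicate 2, where Poldip2 no longer passed. The remaining 4 members, Cybb, Nox1, Ncf4 and Noxa1, had too few counts to be tested.

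Among the catalytic subunits, Nox4 was the most abundant and was present in both groups. Nox4 (ENSMUSG00000030562, chromosome 7, 87246096 to 87398710, plus strand) had 36, 89 and 131 counts in the het clones and 88, 153 and 131 in the knockout clones. In CPM these were 2.15, 5.0 and 8.20 against 5.37, 9.40 and 6.76. The groups overlapped, het replicate 1 was the lowest of all 6 clones, and the het clones spanned a 3.81-fold range against 1.75-fold in the knockout clones. Group means were 5.12 ± 3.03 and 7.18 ± 2.05 CPM, a log2 fold change of 0.49 with an SE of 0.48. That value was 0.12 without het replicate 1 and 1.0 without het replicate 3.

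The estimated division of Nox4 counts between transcripts also differed between clones, most widely among the het clones. Of 8 annotated transcripts, 6 had counts. Protein-coding transcripts took 0%, 13.6% and 79.3% of the gene's counts in het replicates 1, 2 and 3, and 66.5%, 55.7% and 47.9% in knockout replicates 1, 2 and 3. In het replicate 1 all counts were assigned to Nox4-204, a processed transcript, and Nox4-208, a transcript annotated for nonsense-mediated decay. Protein-coding counts were thus 0, 12.2 and 104 in the het clones and 58.2, 85.1 and 62.7 in the knockout clones, and the groups overlapped because of het replicate 3. The transcripts share exons and the gene had at most 153 counts in a library, so these shares are estimates. Only Nox4-204 is among the transcripts with deposited FPKM values. On these values the Nox4 log2 difference was negative, -0.31 with a pseudocount of 1 and -0.55 with 0.1, and the authors' deposited table gives -0.58 for that transcript.

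**Figure D2:**
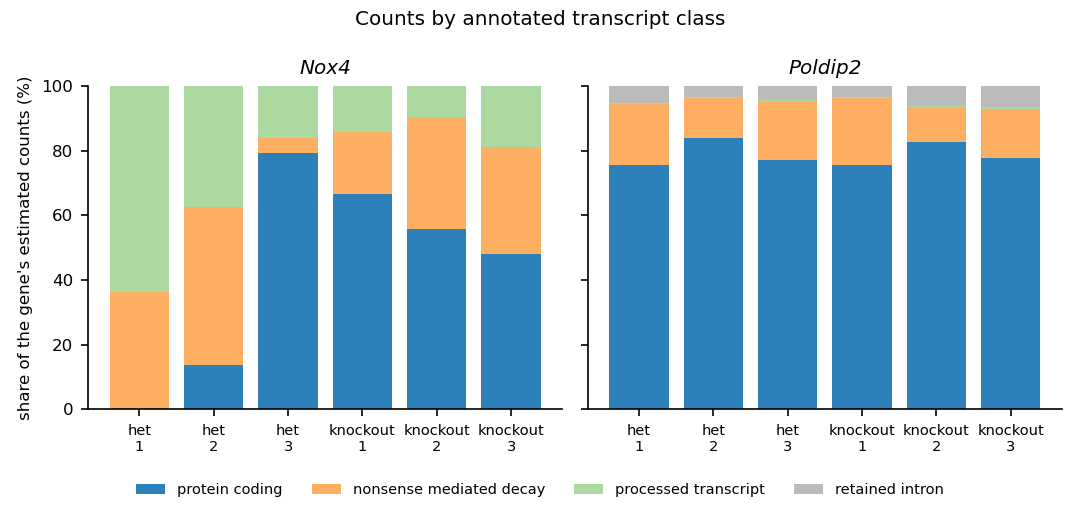
Share of the estimated counts of Nox4 (left) and Poldip2 (right) by annotated transcript class, in percent, with 1 bar per clone. Protein-coding transcripts take 0% to 79.3% of Nox4 counts in the het clones and 47.9% to 66.5% in the knockout clones, and 75.6% to 83.8% of Poldip2 counts in all 6.

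The other catalytic subunits were near the limit of detection. Cybb (chromosome X, 9435252 to 9487771, minus strand), the flavocytochrome heavy chain of phagocytes, had 4, 5 and 3 counts in the het and 2, 3 and 2 in the knockout clones. Pooled over clones this was 0.238 CPM (exact 95% interval 0.123 to 0.415) against 0.135 CPM (0.0541 to 0.277), and the het to knockout ratio of 1.77 had an interval of 0.641 to 5.30. Nox1 (chromosome X, 134086421 to 134221956, minus strand), known best from colon epithelium and vascular smooth muscle, had 1, 1 and 3 counts in the het and 3, 7 and 3 in the knockout clones. Its pooled levels were 0.0990 CPM (0.0321 to 0.231) and 0.250 CPM (0.133 to 0.427), a het to knockout ratio of 0.396 with an interval of 0.111 to 1.18. Both ratio intervals cover counting error only and include 1. Exons of Nox1 share 399 of 3307 bases with Cstf2 on the opposite strand, which had 1342 to 2221 counts per library. The library kit keeps strand per the labels' protocols, but the sources used here do not say whether the counting used it, so reads of such pairs cannot be told apart.

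The organizers Noxo1 and Ncf1, which bind the p22phox tail and bring the activator to the membrane, and the accessory phagocyte subunit Ncf4 had few counts, and their clones overlapped between groups. Noxo1 (chromosome 17, 24696234 to 24700529, plus strand) had 18, 16 and 21 counts in the het and 9, 19 and 31 in the knockout clones. Its means were 1.10 ± 0.209 and 1.11 ± 0.529 CPM, a log2 fold change of 0.02 (SE 0.45). Noxo1 shares 2122 of its 3013 exon bases with Tbl3 on the opposite strand, a ribosome biogenesis gene at 104 ± 11.9 and 96.7 ± 8.78 CPM, and the 2 sources of reads cannot be told apart. Ncf1 (p47phox, chromosome 5, 134220053 to 134229625, minus strand) had 11, 13 and 9 counts in the het and 3, 9 and 13 in the knockout clones. Its means were 0.650 ± 0.0834 and 0.469 ± 0.255 CPM, a log2 fold change of -0.45 (SE 0.50), and the clones overlapped because knockout replicate 3 was as high as the het clones. Ncf1 shares 408 of 3663 exon bases with Gtf2ird2 on the opposite strand, with the same limit. Ncf4 (p40phox, chromosome 15, 78244801 to 78262580, plus strand) had 1, 0 and 2 counts in the het and 0, 0 and 1 in the knockout clones, and each was assigned to a retained-intron transcript. The protein-coding Ncf4 transcripts had no count in any clone.

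The activator Noxa1 (chromosome 2, 25085667 to 25095149, minus strand), a partner of NOX1, had 0 counts in all 6 clones. A floor of 3 counts allows up to 0.155 to 0.188 CPM in a library, 0.0594 CPM in the pooled het clones and 0.0577 CPM in the pooled knockout clones. It was not detectable at this depth in either group.

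Poldip2 (chromosome 11, 78512193 to 78522736, plus strand), the p22phox-binding regulator, was the most abundant member and was lower in all 3 knockout clones. It had 1849, 2021 and 1955 counts in the het and 1503, 1360 and 1350 in the knockout clones, or 110.5, 113.5 and 122.4 against 91.7, 83.6 and 69.7 CPM. The lowest het clone lay above the highest knockout clone, and 47.5% of all tested genes likewise had no overlap between the groups. The means were 115.5 ± 6.20 and 81.6 ± 11.1 CPM, a 1.41-fold difference and a log2 fold change of -0.50 (SE 0.12). Its main protein-coding transcript Poldip2-201 took 79.0% of the counts in the het and 78.5% in the knockout clones, and the decay-annotated Poldip2-202 took 16.4% and 15.8%. In the authors' deposited table Poldip2-201 has a log2 fold change of -0.47, Poldip2-202 of -0.53 and the retained-intron Poldip2-204 of 0.17.

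On a scale that corrects for length (TPM, a transcript share scaled by annotated length), Poldip2 and Cyba stood well above the other members in the het clones. Poldip2 was at 128.8 ± 11.7 TPM, Cyba at 65.6, 105 and 129 TPM (mean 99.5 ± 31.8) and Nox4 at 5.05 ± 2.25 TPM. The Cyba and Poldip2 ranges overlapped, at up to 129 and down to 120.2 TPM, but within each het clone Poldip2 was higher, at 1.83, 1.19 and 1.11 times the TPM of Cyba in replicates 1, 2 and 3. Nox4 lay below both in every clone. Noxo1 followed at 1.01 ± 0.229 TPM and Ncf1 at 0.471 ± 0.0686 TPM, and Ncf1 lay above Cybb in every het clone. Ncf4, Cybb and Nox1 were at 0.321 ± 0.391, 0.185 ± 0.150 and 0.179 ± 0.231 TPM, and the ranges of these 3 overlapped. Noxa1 was at 0. By het level, 90.4% of genes with counts had a lower TPM than Cyba and 50.1% a lower TPM than Nox4.

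Within each het clone the TPM of Cyba was 24.9, 19.3 and 18.1 times that of Nox4 in replicates 1, 2 and 3. The Nox4 TPM, and so these ratios, depend on the estimated division of its counts between transcripts of different lengths. In CPM, which has no length correction, Cyba was at 26.1, 39.1 and 47.1 and Nox4 at 2.15, 5.0 and 8.20. Cyba, Nox4 and Poldip2 were each lowest in het replicate 1 and highest in het replicate 3. In the knockout clones Poldip2 was at 91.5 ± 3.28 TPM, Nox4 at 5.95 ± 1.43 TPM and Noxo1 at 1.01 ± 0.564 TPM, with Nox1 and Ncf1 at 0.488 ± 0.245 and 0.362 ± 0.215 TPM. Ncf4 and Cybb followed at 0.0576 ± 0.0997 and 0.0561 ± 0.0165 TPM, and the ranges of neighbours from Noxo1 downward overlapped, with Cyba and Noxa1 at 0. The knockout clones held Nox4 RNA at a level overlapping that of the het clones with no detected RNA for its membrane partner. The authors' deposited FPKM values, present for 3 members, gave Cyba 34.3, 52.1 and 64.0 in the het clones and 0 in the knockout clones.

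The silence of Cyba was next compared with the genes around it. The 20 tested genes nearest to Cyba, 10 on each side, had between them 3 called higher, 4 called lower and 13 not called, beside 28.1% of all genes called, and their median log2 fold change was -0.09 against -0.00 for all tested genes. Each of these 20 genes had at least 4 counts in the knockout clones. Mvd, a mevalonate pathway enzyme whose gene ends 671 bases upstream of Cyba on the same strand, was at 39.7 ± 13.4 CPM in the het and 20.5 ± 3.18 CPM in the knockout clones, a log2 fold change of -0.96 (SE 0.25, edgeR adjusted p = 0.0298). Mvd did not pass without het replicate 2 (adjusted p = 0.0540) or without knockout replicate 1, 2 or 3 (0.0653, 0.0990 and 0.0802). Zc3h18, a nuclear RNA-binding protein gene 7416 bases away on the other side, was at 151.8 ± 11.1 and 177.9 ± 6.58 CPM (adjusted p = 0.105).

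Foxc2 and Foxl1, adjacent forkhead transcription factor genes more than 1 megabase from Cyba (1305881 and 1294132 bases), were the genes of that stretch with the lowest log2 fold changes, -4.28 (SE 0.74, edgeR adjusted p = 0.00740) and -4.18 (SE 0.87, adjusted p = 0.0140). Both rest on few counts: Foxc2 was at 3.84 ± 1.21 CPM in the het clones, with 10 counts in the knockout clones. Foxl1 was at 1.5 ± 0.923 CPM in the het clones, with 4 counts in the knockout clones. Foxl1 did not pass without knockout replicate 2 (0.0703). Zcchc14 was also called lower, at -0.41 (SE 0.11, adjusted p = 0.0319), and kept the call only without het replicate 2 among the 6 clones left out in turn, with values from 0.0428 to 0.110. The 3 genes called higher, named after their values were seen, were the mechanically gated channel gene Piezo1 (0.88, SE 0.24, adjusted p = 0.0326), the replication licensing gene Cdt1 (0.69, SE 0.12, 0.00865) and the lysosomal sulfatase gene Galns (0.93, SE 0.13, 0.00407). Piezo1 did not pass without het replicate 2 or 3 or without knockout replicate 1 or 2 (0.106, 0.0932, 0.105 and 0.116).

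**Figure D3:**
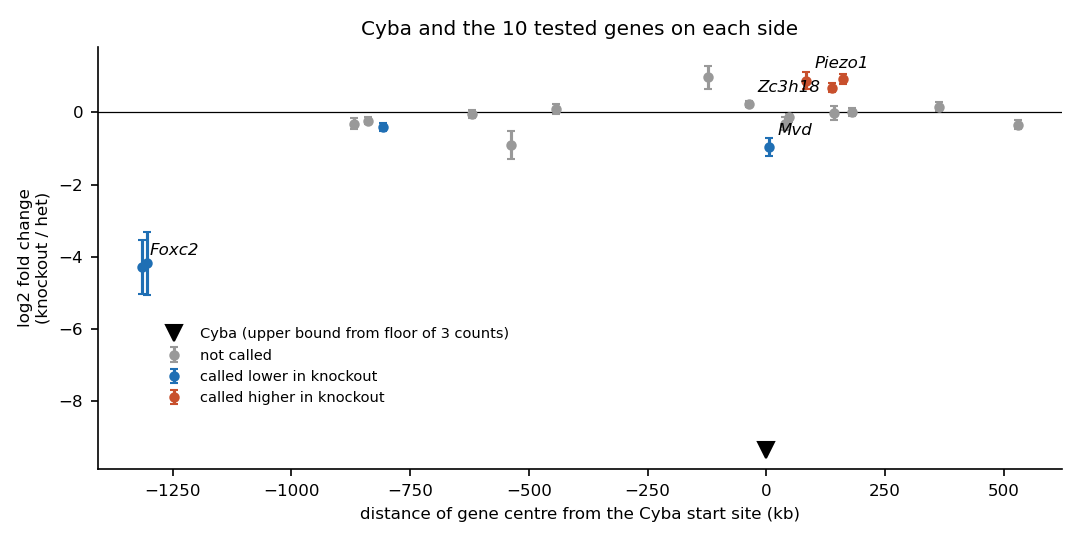
Log2 fold change (knockout against het) of the 20 tested genes around Cyba against the distance of each gene's centre from the Cyba start site in kilobases; circles with SE bars are fitted values coloured by call, and the black triangle is the bound for Cyba, -9.34, from a floor of 3 counts. The neighbours lie between -4.28 and 0.97, all above the bound for Cyba.

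The other tested members were set beside their 20 nearest tested genes in the same way, with 28.1% of all genes called. Around Nox4, 3 were called higher and 3 lower. The tested gene next to Nox4 on 1 side, 879375 bases away, was the lysosomal protease gene Ctsc, which had 25.3 ± 5.14 CPM in the het clones and no count in the knockout clones (edgeR adjusted p = 0.000373), while Nox4 itself was present in every clone. On the other side Gm44578 was not called (adjusted p = 0.303). Around Poldip2, 2 were called higher and 2 lower. Poldip2's nearest tested genes, Tmem199 at 21 bases and Tnfaip1 at 114 bases, were not called (adjusted p = 0.287 and 0.964). The lower neighbours were the spindle gene Spag5 (196.4 ± 21.1 to 111.4 ± 7.22 CPM, adjusted p = 0.00335) and the glycolytic gene Aldoc (1.49 ± 0.337 to 0.437 ± 0.114 CPM, adjusted p = 0.0161). Aldoc did not pass when het replicate 3 was left out (0.0567), nor when knockout replicate 1 (0.0595) or 2 (0.0823) was. Around Noxo1, 1 was called higher and 1 lower, and its nearest genes Gfer and Tbl3 were not called (0.704 and 0.542). Around Ncf1, 0 were called higher and 1 lower, and Gtf2ird2 and Gtf2i beside it were not called (0.998 and 0.257).

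The 5 genes whose profile over the 6 libraries lay nearest to that of Cyba were found by the Euclidean distance of log2(CPM + 0.5), after each gene's het mean was subtracted. They were the interferon-inducible Ifi202b (distance 0.628), the growth factor Bmp4 (0.698), the lactonase Pon3 (0.726), the prostaglandin transporter Slco2a1 (0.782) and the transcription factor Ebf3 (0.804). Ifi202b had 22, 34.9 and 69.5 CPM in the het clones and, like Ebf3 with 42.6, 51.8 and 47.7 CPM, no count in the knockout clones. Ifi202b and Cyba were both lowest in het replicate 1 and highest in het replicate 3, an order that Nox4 and Poldip2 also had in CPM. Because the 5 genes were picked for likeness to Cyba over these same clones, nothing is read from that order. Bmp4, Pon3 and Slco2a1 kept 37, 4 and 112 counts in the knockout clones. The list depended on the clones used: 1, 3 and 3 of these 5 remained without het replicates 1, 2 and 3, and 5, 4 and 3 without knockout replicates 1, 2 and 3. With a pseudocount of 0.1 only 2 remained, Ifi202b and Ebf3.

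Genes that work with the oxidase were then described in 5 lists, whose counts stand beside the 28.1% of all genes called. Among partners and activators, 31 of 40 genes in the table were tested, 1 was called higher, 5 lower and 25 not called, or 19.4% called, and the median log2 fold change was -0.22. The count was 2 without het replicate 2, 3 without het replicate 3, and 2 without knockout replicate 1 or knockout replicate 2. Hvcn1, the proton channel that balances the charge moved by the phagocyte oxidase, fell from 1.14 ± 0.196 to 0.0787 ± 0.0951 CPM (edgeR adjusted p = 0.0101). Arhgdib, a GDP-dissociation inhibitor that holds Rac in the cytosol, fell from 69.1 ± 41.7 to 1.83 ± 0.263 CPM (adjusted p = 0.00375), and het replicate 1 was at 21.0 CPM against 93.9 and 92.5 CPM in the other het clones.

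The Rac exchange factor Prex1 (2.23 ± 1.27 to 0.506 ± 0.190 CPM, edgeR adjusted p = 0.0338) and the kinase Prkca, which phosphorylates p47phox (98.3 ± 9.53 to 68.2 ± 8.13 CPM, 0.0221), were called lower with all clones. Neither passed without het replicate 2 (0.108 and 0.0744), het replicate 3 (0.0865 and 0.0706), knockout replicate 1 (0.114 and 0.0636) or knockout replicate 2 (0.125 and 0.0555). The abundant partners Arhgdia and P4hb were not called (adjusted p = 0.318 and 0.118). Several partners are named after their values were seen, because they complete the enzymes above. Rac1, the GTPase that switches on NOX1 and NOX2, was at 392.6 ± 26.1 and 403.7 ± 39.7 CPM (adjusted p = 0.824). The haematopoietic Rac2 had 35 counts in all 6 libraries. Cybc1, a chaperone of the NOX2 and p22phox pair, was at 44.6 ± 3.23 and 33.9 ± 5.30 CPM (0.0722). Its clones did not overlap between groups, as for 47.5% of all tested genes. The dual oxidase Duox1, which does not need p22phox, was at 1.73 ± 0.363 and 1.14 ± 0.174 CPM (0.208).

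The phagocyte oxidase genes were set beside phagocyte markers. Of 15 markers 4 were tested, with 1 called higher (the lipopolysaccharide co-receptor Cd14) and 0 lower, and Adgre1, Tyrobp, Laptm5 and Cd52 had no count in any library. Their summed level was 14.3 to 19.7 CPM in the het and 25.7 to 27.9 CPM in the knockout clones. Cd14 alone was at 7.94 ± 3.44 and 18.9 ± 2.60 CPM (edgeR adjusted p = 0.0257), and Cd68, the next most abundant, at 4.59 ± 1.34 and 4.22 ± 0.485 CPM. Cd14 did not pass without het replicate 2 (0.0898) or 3 (0.0562), nor without knockout replicate 1 (0.0872) or 2 (0.0860). Spi1, the myeloid transcription factor known to drive Cybb and Ncf1, had 9 counts in all. Markers of other cell types were described in the same way. The summed epithelial markers were at 16.1 to 56.7 CPM in the het and 0.492 to 1.09 CPM in the knockout clones. Krt19 was the 1 tested and called lower of 8, at 40.95 ± 21.8 and 0.410 ± 0.191 CPM. Most of the epithelial sum in the het clones was Krt19 alone, at 15.8 to 55.4 CPM. Smooth muscle markers were at 139.8 to 197.0 and 87.6 to 142.9 CPM, ranges that overlapped, with 1 higher and 3 lower of 5 tested. Smtn, the most abundant of them, was not called, at 87.4 ± 12.7 and 116.8 ± 30.8 CPM. Acta2 (27.5 ± 16.1 to 1.02 ± 0.597 CPM), Tagln (48.9 ± 20.6 to 2.20 ± 0.893 CPM) and Myl9 (8.93 ± 4.91 to 0.526 ± 0.183 CPM) were lower. Des (1.10 ± 0.408 to 3.08 ± 1.06 CPM) was higher. Endothelial markers were at 7.89 to 17.9 and 4.94 to 6.71 CPM, with 0 higher and 1 lower (Flt1) of 3 tested and Emcn at 0. Among all tested genes 28.1% were called. The part of these marker differences in the values of Cyba and Poldip2 was not tested.

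Among inducers and transcription factors of oxidase genes, 32 of 42 were tested, 1 was called higher, 10 lower and 21 not called (34.4% called, median log2 fold change -0.18). Leaving out het replicate 2 or knockout replicate 1 gave 6 calls, and leaving out knockout replicate 2 gave 5. The immediate early genes Egr1 (177.9 ± 33.4 to 36.0 ± 8.92 CPM, edgeR adjusted p = 0.00135) and Fos (11.0 ± 1.53 to 3.30 ± 0.727 CPM, 0.00375) fell. The cytokine and growth factor receptors Il1r1 (75.0 ± 18.7 to 21.5 ± 3.07 CPM, 0.00210) and Pdgfra (6.64 ± 1.81 to 1.29 ± 0.593 CPM, 0.00764) fell too. Sp1, which binds GC boxes, was not called, at 205.3 ± 8.43 and 220.3 ± 11.9 CPM (0.433).

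Of the genes that supply NADPH, 24 of 26 were tested, 2 were called higher, 7 lower and 15 not called (37.5% called, median -0.30), and the count was 5 without knockout replicate 2. Aldh1l2, the mitochondrial folate enzyme that makes NADPH, fell from 167 ± 58.0 to 0.845 ± 0.297 CPM (edgeR adjusted p = 8.8e-05). The isocitrate dehydrogenases Idh1 (72.7 ± 26.4 to 23.9 ± 2.31 CPM, 0.00557) and Idh2 (175.3 ± 15.6 to 98.2 ± 0.676 CPM, 0.00197) fell, as did the transhydrogenase Nnt (74.9 ± 21.5 to 28.7 ± 0.919 CPM, 0.00397). These are cytosolic (Idh1) and mitochondrial (Idh2 and Nnt) sources. G6pdx, the NADPH-making enzyme that opens the pentose phosphate pathway, named after its values were seen, fell from 254.7 ± 31.1 to 165.6 ± 15.1 CPM (0.0131), but did not pass without knockout replicate 2 (0.0622). Tkt of the same pathway (adjusted p = 0.285) and Glud1 (0.581) were not called.

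Of the genes that remove superoxide and peroxide, 34 of 39 were tested, 6 were called higher, 11 lower and 17 not called (50% called, median -0.26). Leaving out knockout replicate 1 gave 11 calls and leaving out knockout replicate 2 gave 6. The quinone reductase Nqo1 fell from 60.2 ± 34.8 to 4.47 ± 0.517 CPM (edgeR adjusted p = 0.00249), and the secreted superoxide dismutase Sod3 fell from 27.6 ± 6.18 to 1.11 ± 0.887 CPM (0.00338). Glutaredoxin (Glrx) fell from 27.6 ± 7.46 to 8.96 ± 1.99 CPM (0.00519), and the endoplasmic reticulum peroxiredoxin Prdx4 rose from 87.4 ± 3.51 to 134.5 ± 6.07 CPM (0.00349). Cytosolic peroxiredoxin Prdx1 (adjusted p = 0.103) and thioredoxin reductase Txnrd1 (0.872) were not called.

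Of the other enzymes that make superoxide or peroxide, 31 of 44 were tested, 4 were called higher, 9 lower and 18 not called (41.9% called, median -0.20). It was 8 or 7 calls when knockout replicate 1 or 2 was left out. Lysyl oxidase (Lox), which releases peroxide as it crosslinks collagen, fell from 453 ± 70.6 to 81.2 ± 24.5 CPM (edgeR adjusted p = 0.00113). The actin-oxidizing monooxygenases Mical1 (47.6 ± 13.2 to 1.67 ± 1.12 CPM, 0.00150) and Mical3 (52.7 ± 2.48 to 31.9 ± 0.833 CPM, 0.00276) fell, and the sulfhydryl oxidase Qsox2 rose from 39.3 ± 3.47 to 88.1 ± 7.38 CPM (0.00113). Mical2 of the same family, named after its values were seen, was called higher with all clones (73.2 ± 17.3 to 132.0 ± 27.8 CPM, 0.0273). It did not pass without het replicate 1 (0.0573) or 3 (0.0863), nor without knockout replicate 1 (0.0901) or 2 (0.0927). Maoa (adjusted p = 0.982) and Cyb5r3 (0.622) were not called.

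**Figure D4:**
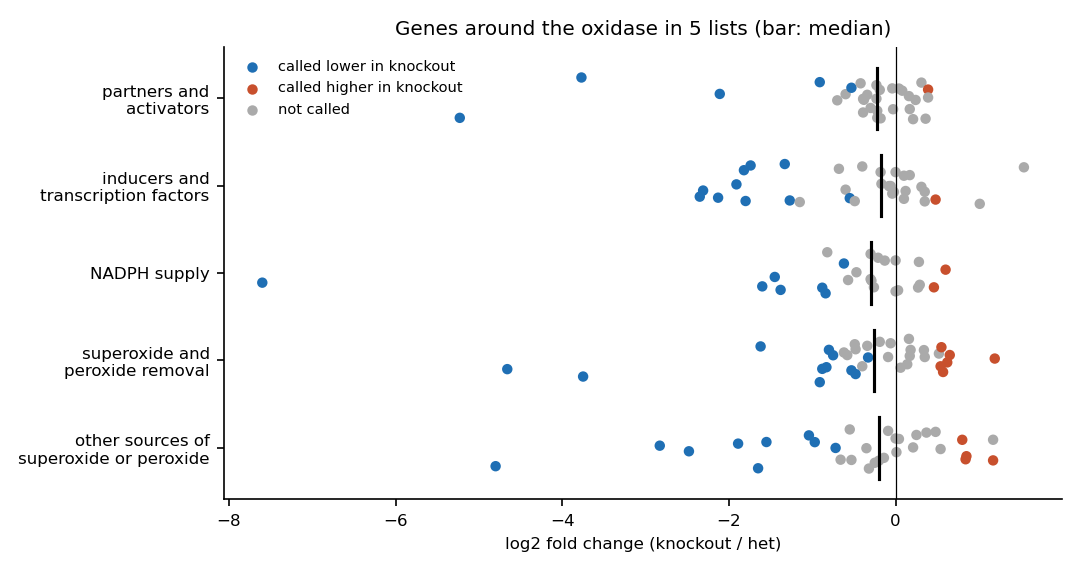
Log2 fold change (knockout against het, x axis) of each tested gene in the 5 lists around the oxidase (rows); blue and orange points were called lower and higher in the knockout clones, grey points were not called, and black bars are medians. Called genes are mostly on the lower side in each list, and the medians lie between -0.30 and -0.18.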

How the data were processed

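Per the submitters' processing notes the build was GRCm38.p4 and the tools were edgeR (no version stated), kallisto 0.42.5 and Trimmomatic 0.36. The authors deposited estimated counts for 96626 transcripts, FPKM for 24799 transcripts, and a table with log2 fold changes and p-values per transcript. Transcripts were assigned to genes with GENCODE M21 (GRCm38), 95301 directly and 253 through the authors' deposited table, and 1072 were left out (at most 0.0273% of a library's counts). Estimated counts were summed per gene and rounded. The filter was filterByExpr with a count minimum of 10 and a total of at least 15, the scaling was TMM, and genes were tested two-sided with edgeR's quasi-likelihood test (edgeR 4.0.16, R 4.3.3) with Benjamini-Hochberg adjustment at 0.05. The procedure was also run on simulated data. Far fewer genes changed there than were called here, so nothing about these calls is read from that run. CPM use TMM-scaled library sizes, and TPM use annotated rather than effective lengths. Floors of 3 counts and exact 95% intervals cover counting error only. Alternatives were DESeq2 1.42.0, limma 3.58.1 on log2 of the deposited FPKM, other scalings and filters, and each clone left out. Named genes were the 9 members, Macf1, the 5 genes nearest to Cyba in profile, nearest neighbours and those called like the member, and from each list up to 4 called genes with the smallest adjusted p and the 2 most abundant others, of which some are not reported here. The members and lists were chosen with earlier results of these data known.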

Additional observations from a re-analysis of the deposited data

How the results depend on the processing

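With each clone left out in turn, the genes called numbered 1565 to 3825 (3586 with all clones). Over the same fits the counts called were 2 to 8 for partners and activators (6 with all clones), 5 to 10 for inducers (11), 5 to 10 for NADPH supply (9), 6 to 16 for removal (17) and 7 to 19 for other enzymes (13). The cause was not tested. The Cyba bound was 409-fold to 751-fold over these fits. Without a knockout clone it was 409-fold to 447-fold, since the same floor is set against a smaller pooled total. Without a het clone it was 566-fold to 751-fold, highest without het replicate 1, the het clone with the least Cyba. With RLE scaling and library totals the bound was 654-fold and 657-fold. The other scalings, filters, DESeq2 and FPKM values kept all these counts within 1.5 times. Poldip2 had a negative log2 fold change in all 13 alternatives (-0.59 to -0.40). Nox4 ran from -0.55 to 1.0, Noxo1 from -0.35 to 0.34 and Ncf1 from -0.81 to -0.09. These ranges are a description, and no call of a member is read from them because the set was chosen by this contrast. No paired analysis was possible because the sources used here do not pair any het clone with a knockout clone. Depth limits Cybb, Nox1, Ncf4 and Noxa1, where a floor of 3 counts is 0.155 to 0.188 CPM in a library.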
